A study of Mus musculus with 15 samples.

Results

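Complement genes were examined as a set of 35 listed components, receptors and inhibitors. They were chosen by name from the known parts of the cascade, with earlier results of these data known. A probe set naming 1 gene alone was found for 34 of the 35, out of 19938 genes on the array. The set held 7 classical, 2 alternative, 6 lectin and 7 terminal pathway genes, 3 receptors and 9 inhibitors. C3, the central protein of the cascade, had no probe set naming it alone and was not analysed here. C1s was measured under its current mouse name, C1s1.

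Complement is a chain of proteases and binding proteins that is set off by antibody complexes (classical pathway), by sugars on surfaces (lectin pathway) or by slow turnover of C3 itself (alternative pathway). All routes cleave C3 and then C5, which releases the small fragments C3a and C5a that draw in and activate leukocytes through their own receptors, and ends in a pore made of the terminal components. Most circulating complement is made in the liver, but macrophages and stromal cells of an inflamed joint also transcribe several of these genes. In collagen-induced arthritis, antibodies against collagen type II bind to cartilage and can set off the cascade within the joint.

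RNA of whole tarsal joints, freed of skin and visible muscle but with the other soft tissue kept, was hybridised to Affymetrix Mouse Gene 1.0 ST arrays, 1 joint per array. Male DBA/1JBom mice had been immunised on day 1 with 100 µl chicken collagen type II at 2 mg/ml in complete Freund's adjuvant at 0.5 mg/ml, with a boost of collagen in incomplete Freund's adjuvant on day 21. Joints with a clinical score of 3 were taken at day 0 to 3 (animals 16 and 18), week 1 to 2 (animals 33, 43 and 52) and week 3 to 4 (animals 54, 29 and 60) after onset, and a further group was taken once the score had declined (animals 15, 21 and 10). Controls 1, 2 and 3 were labelled as non-induced, and the sources used here do not settle whether they had received adjuvant without collagen. The sources also differ on how long the joints of the decline group had been inflamed. Another day 0 to 3 joint, from animal 57, did not pass the submitters' quality control and enters a comparison only where stated. Groups of 2 or 3 single joints of separate animals limit what can be shown, and in whole tissue fewer cells of a type and less RNA per cell cannot be told apart.

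Values are log2 probe set intensities, so that a difference of 1 is a doubling of intensity. A gene was called when limma, fitted over all 5 groups and all genes, gave a Benjamini-Hochberg adjusted p under 0.05. The SD over genes lay between 1.22 and 1.65 on the 14 arrays used, with control 2 and animal 10 at 1.22 and 1.28, and was 1.08 for animal 57. The median gene differed from the controls by between -0.13 and -0.05 on the log2 scale in the 4 phases. Detection of markers was not tested. In controls the marker means were 6.99 to 7.24 for cartilage, 7.90 to 8.37 for osteoblasts and 6.40 to 6.91 for osteoclasts. The osteoclast markers Calcr, Oscar and Dcstamp averaged 5.96, 5.82 and 5.47 there. Markers of other tissues differed between the groups. The mean of 8 skeletal muscle markers was 11.06 to 11.85 in controls, 8.86 to 9.0 at day 0 to 3 and 10.13 to 10.98 at week 1 to 2. The mean of 8 epidermis markers was 5.60 to 6.34 over the 5 joints of these 2 phases and 6.05 to 9.55 in controls. It was 6.79 to 10.20 at week 3 to 4 and 9.82 to 10.63 in decline.

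At day 0 to 3, 4 of the 34 complement genes were called, with 7.82% of all genes called in either direction. Cfb, C3ar1 and C5ar1 rose, with 4.46% of all genes called higher, and C7 fell, with 3.36% called lower. At week 1 to 2, 4 of 34 were again called, with 10.1% of all genes in either direction. C3ar1, C5ar1 and Cr1l rose, with 5.41% of all genes called higher, and C7 fell, with 4.64% called lower. No complement gene was called at week 3 to 4, where 1.55% of all genes were called in either direction, or in decline, where 0% were. At an unadjusted p under 0.05, limma gave 14 complement genes at day 0 to 3, where 26.1% of all genes passed, 12 at week 1 to 2, where 29.9% passed, 12 at week 3 to 4, where 23.9% passed, and 3 in decline, where 12% passed.

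**Figure D1:**
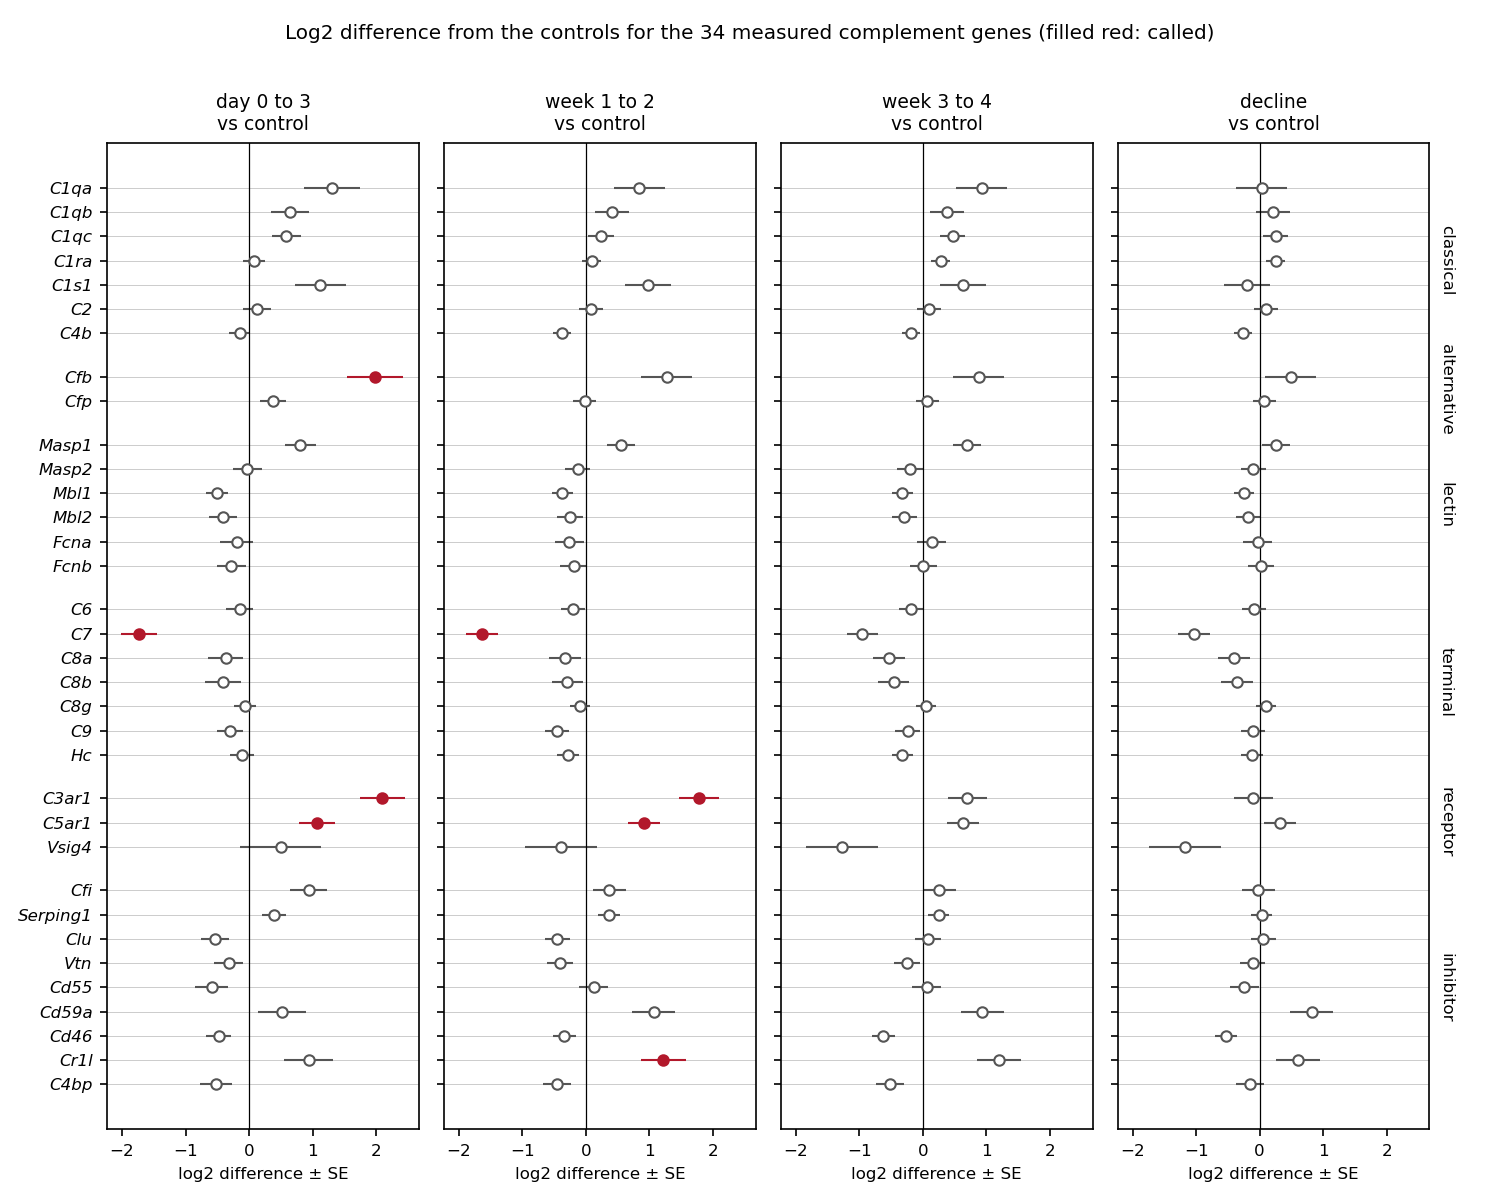
Difference from the controls on the log2 scale (x axis) for each of the 34 measured complement genes (rows, by class) in the 4 phases (panels), as fitted by limma with its SE as bars; filled red points were called. The called genes are Cfb, C3ar1, C5ar1 and C7 at day 0 to 3, then C3ar1, C5ar1, Cr1l and C7 at week 1 to 2.

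The classes differed in how many of their genes stood clear of the controls. At day 0 to 3, the values of 13 of 34 genes lay above all 3 controls, a state reached by 18.4% of all genes, and those of 8 lay below all 3, as for 27.8% of all genes. The 13 were 5 of 7 classical, both alternative, 1 of 6 lectin, 2 of 3 receptor and 3 of 9 inhibitor genes, and none of the 7 terminal genes. At week 1 to 2 the numbers were 9 above, with 13.6% of all genes, and 3 below, with 23.3% of all genes. They were 5 above at week 3 to 4, with 10.5% of all genes, and 2 below, with 15.4%, and in decline 0 above, with 3.8%, and 3 below, with 6.2%. The median log2 difference at day 0 to 3 was 0.59 for classical genes, 1.07 for receptors, -0.24 for lectin genes, -0.30 for terminal genes and -0.32 for inhibitors, against -0.12 over all genes. All members with a mean log2 value under 6 were lectin, terminal or inhibitor genes. Over all genes under 6 the median at day 0 to 3 was -0.26, and over the brighter genes 0.04. The 25 brighter members had a median of 0.39 at day 0 to 3 and 0.12 at week 1 to 2. After a second quantile normalisation these medians were 0.19 and -0.04. Class and brightness were not separated here.

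Upstream sequences are shown for called members with a RefSeq window that lies outside the gene itself, so that the genes that rose or fell can be set beside the DNA before their starts. Of the 5 genes called in a phase, 3 had such a window of 250 bases directly before the annotated start (RefSeq, build GRCm38.p6). Capitals mark matches on either strand to 6 motifs: the interferon response element core GAAANNGAA, the STAT site TTCNNNGAA, the PU.1 core GAGGAA, the C/EBP type TTGCNNAA, the kB type GGGANNTTC and the TATA box TATAAA.
C3ar1 (chr6:122856158-122856407, minus strand): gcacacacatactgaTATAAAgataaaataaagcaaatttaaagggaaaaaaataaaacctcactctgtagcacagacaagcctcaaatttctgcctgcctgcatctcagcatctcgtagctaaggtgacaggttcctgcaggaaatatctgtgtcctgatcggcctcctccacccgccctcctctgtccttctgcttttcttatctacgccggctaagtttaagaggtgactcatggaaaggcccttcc
C7 (chr15:5063774-5064023, minus strand): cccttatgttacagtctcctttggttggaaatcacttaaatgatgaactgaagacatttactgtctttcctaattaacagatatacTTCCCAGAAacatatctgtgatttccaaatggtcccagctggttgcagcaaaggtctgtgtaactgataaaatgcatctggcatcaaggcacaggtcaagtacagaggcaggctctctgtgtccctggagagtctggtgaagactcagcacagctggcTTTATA
Cr1l (chr1:195131571-195131820, minus strand): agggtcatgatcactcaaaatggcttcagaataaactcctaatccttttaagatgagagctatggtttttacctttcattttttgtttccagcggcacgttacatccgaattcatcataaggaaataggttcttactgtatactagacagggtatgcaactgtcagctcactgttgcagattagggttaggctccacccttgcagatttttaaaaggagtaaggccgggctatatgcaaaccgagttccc
The C3ar1 window held a TATAAA at position -235 to -230 before the start, and the C7 window held a STAT site at -164 to -156 and a TATAAA on the opposite strand at -6 to -1. No match overlapped another, and the Cr1l window held none of the 6. Shares were taken over all 27025 genes with a window of 250 bases, without leaving out windows that lie inside the gene. The interferon response element core was found in 7.16%, the STAT site in 7.18% and the PU.1 core in 23.1%. The C/EBP type was found in 9.55%, the kB type in 3.17% and the TATA box in 13%. These matches are descriptions of letters and not of binding.

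The receptors for C3a and C5a were the complement genes that rose in both early phases. C3ar1, the C3a receptor of myeloid cells, read 10.16 and 10.34 at day 0 to 3 and 9.51, 10.07 and 10.20 at week 1 to 2. In the controls it read 8.72, 7.43 and 8.28. All 5 early joints therefore lay above all 3 controls, with the nearest values 9.51 and 8.72. C3ar1 was 4.30-fold higher at day 0 to 3 (log2 difference 2.10, SE 0.35, adjusted p = 0.0041, limma) and 3.44-fold higher at week 1 to 2 (1.78, SE 0.31, adjusted p = 0.0055, limma). At week 3 to 4 it read 8.74, 8.59 and 9.20, and in decline 8.24, 8.35 and 7.53, so that both late groups overlapped the controls. The call at day 0 to 3 was lost without animal 16 or without animal 18 (adjusted p = 0.054 and 0.067), which each leave 1 joint in the group. With animal 57 added, whose C3ar1 read 6.71, the difference at day 0 to 3 was 0.92 and the adjusted p was 0.761, and at week 1 to 2 the adjusted p was 0.204.

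C5ar1, the receptor through which C5a attracts neutrophils and macrophages, moved the same way by a smaller amount. It read 7.70 and 7.31 at day 0 to 3, 6.97, 7.68 and 7.37 at week 1 to 2, and 6.69, 6.15 and 6.47 in the controls. Every early joint was above every control. The rise was 2.10-fold at day 0 to 3 (log2 1.07, SE 0.28, adjusted p = 0.034, limma) and 1.87-fold at week 1 to 2 (log2 0.91, SE 0.25, adjusted p = 0.038, limma). At week 3 to 4 the joints read 7.03, 6.83 and 7.32, still clear of the controls (log2 0.63, SE 0.25, adjusted p = 0.162, not called), and in decline 6.81, 7.16 and 6.28, which overlapped them. These calls were close to the threshold. That at day 0 to 3 was lost without animal 16, animal 18, animal 52, control 2 or control 3 (adjusted p = 0.297, 0.113, 0.051, 0.093 and 0.066), and that at week 1 to 2 without animal 16, 18, 43, 52 or 54 or control 2 or 3 (adjusted p from 0.05 to 0.169). With animal 57 added, at 6.0, neither held (adjusted p = 0.68 and 0.211). Both were also lost in limma fits of only the groups compared (adjusted p = 0.074 and 0.057) and in analysis of variance without moderation (adjusted p = 0.081 and 0.08).

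Vsig4, a receptor of resident macrophages for fragments of C3, differed from both. It read 8.90 and 8.20 at day 0 to 3, 7.79, 7.31 and 7.89 at week 1 to 2, 6.29, 6.20 and 7.85 at week 3 to 4, 7.58, 7.53 and 5.49 in decline, and 8.99, 7.41 and 7.74 in the controls. All phases overlapped the controls. The fitted difference was 0.50 (SE 0.64) at day 0 to 3, -0.39 (SE 0.57) at week 1 to 2, -1.27 (SE 0.57) at week 3 to 4 and -1.18 (SE 0.57) in decline, with adjusted p of 0.202 or above. No call could be made for Vsig4 with this spread.

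**Figure D2:**
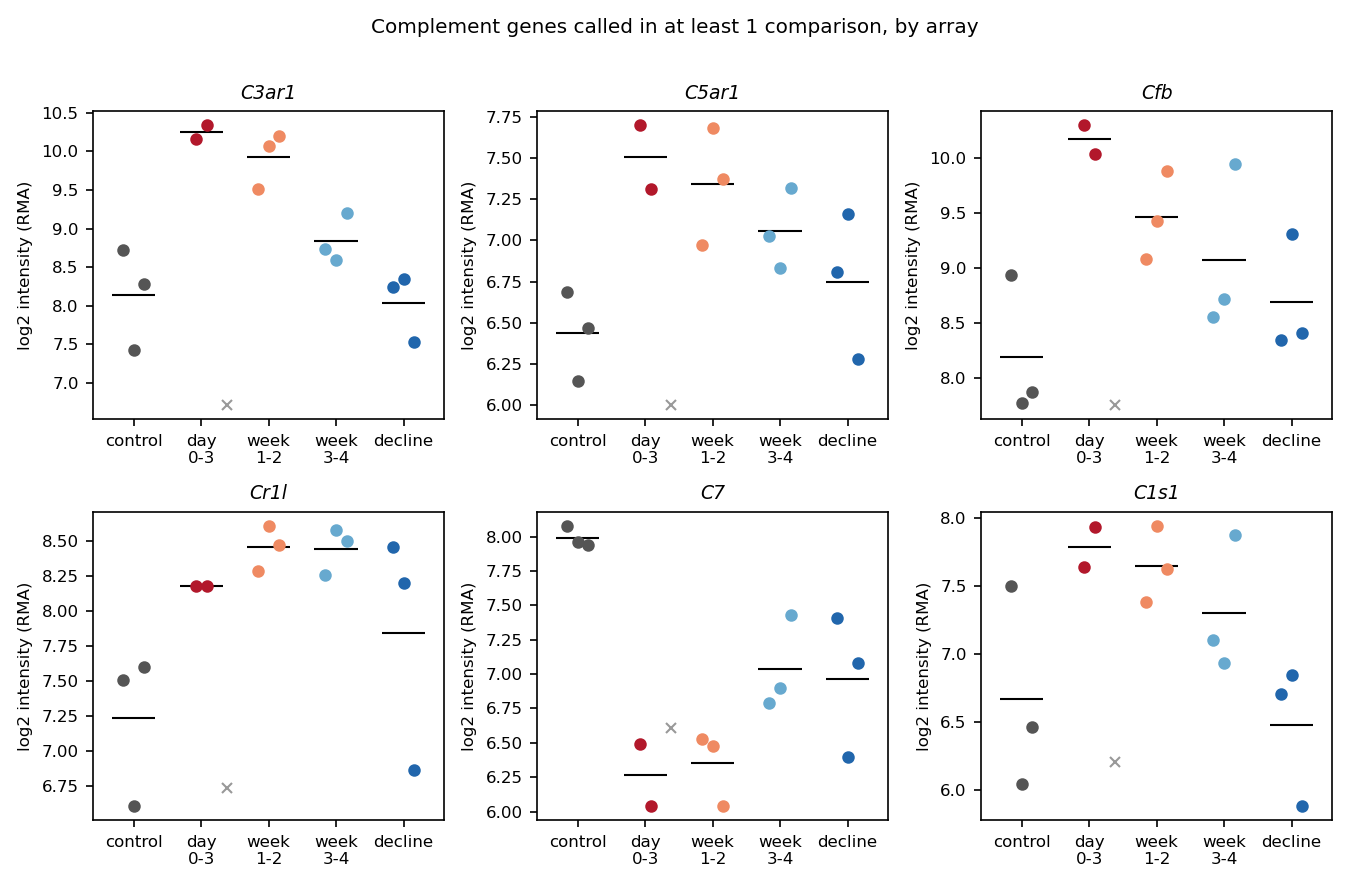
Log2 intensity (y axis) of the 6 complement genes called in at least 1 comparison, for each joint (points) in the 5 groups (x axis), with the group mean as a line; the grey cross is animal 57, which failed quality control. C3ar1, C5ar1 and Cfb stand above the controls at day 0 to 3, C7 stands below them in every phase, and C1s1 is lower in decline than in the 2 early phases.

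Markers of macrophages and of other cell types were higher in the phases in which these receptors rose. The mean over 11 macrophage markers was 7.39 to 8.05 in the controls, 8.68 to 8.95 at day 0 to 3, 8.19 to 8.64 at week 1 to 2, 8.0 to 8.56 at week 3 to 4 and 7.47 to 8.32 in decline. Of the 11, 7 rose at day 0 to 3, and at week 1 to 2 4 rose and 1, Cd163, fell. Tyrobp averaged 10.21 in controls, 12.19 at day 0 to 3 and 11.90 at week 1 to 2, and Cd163 averaged 7.29, 6.62 and 6.22. Osteoclasts share their myeloid origin with macrophages. The mean of 8 osteoclast markers was 6.40 to 6.91 in controls, 7.94 to 8.38 at day 0 to 3 and 7.91 to 8.14 at week 1 to 2. This osteoclast mean was still above all controls later, at 7.64 or more at week 3 to 4 and 7.29 to 7.71 in decline. Of the 8, 4 were called higher in each early phase and again at week 3 to 4, and 0 in decline. The mean of 8 endothelial markers was 6.95 to 7.55 in controls and 7.90 to 7.97 at day 0 to 3, where 4 of 8 rose, and overlapped the controls at week 1 to 2, where 1 rose. Of the 10 fibroblast markers 1 rose at day 0 to 3 and 4 at week 1 to 2. The mean over 12 neutrophil markers overlapped between controls, at 8.15 to 9.17, and day 0 to 3, at 8.71 to 9.01, where 1 rose. This mean joined opposite movements. From controls to day 0 to 3, Cxcr2 went from 7.92 to 10.17 and Csf3r from 6.41 to 8.03. Ngp went from 10.97 to 9.74 and Ltf from 8.46 to 7.66. Relative to the macrophage mean of the same array, C3ar1 was at 1.21 and 1.66 on the log2 scale at day 0 to 3 and at 1.32, 1.51 and 1.57 at week 1 to 2, against 0.67, 0.04 and 0.59 in the controls. It was thus further up in the early joints than the mean of these markers, which includes the falling Cd163. The rise of Tyrobp alone was close to that of C3ar1. Relative to the same mean, C3ar1 stood at 0.57 to 0.64 at week 3 to 4 and 0.03 to 0.29 in decline. C5ar1, taken the same way, stayed between -1.37 and -0.87 on all 14 arrays, with the early joints at -1.37 to -0.87 and the controls at -1.37 to -1.22. Vsig4 was at 0.94, 0.02 and 0.05 in the controls and at -0.40 or below on all arrays from week 1 to 2 onwards except animal 15, at -0.37. The part of any of these cell types in the receptor values was not tested.

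**Figure D3:**
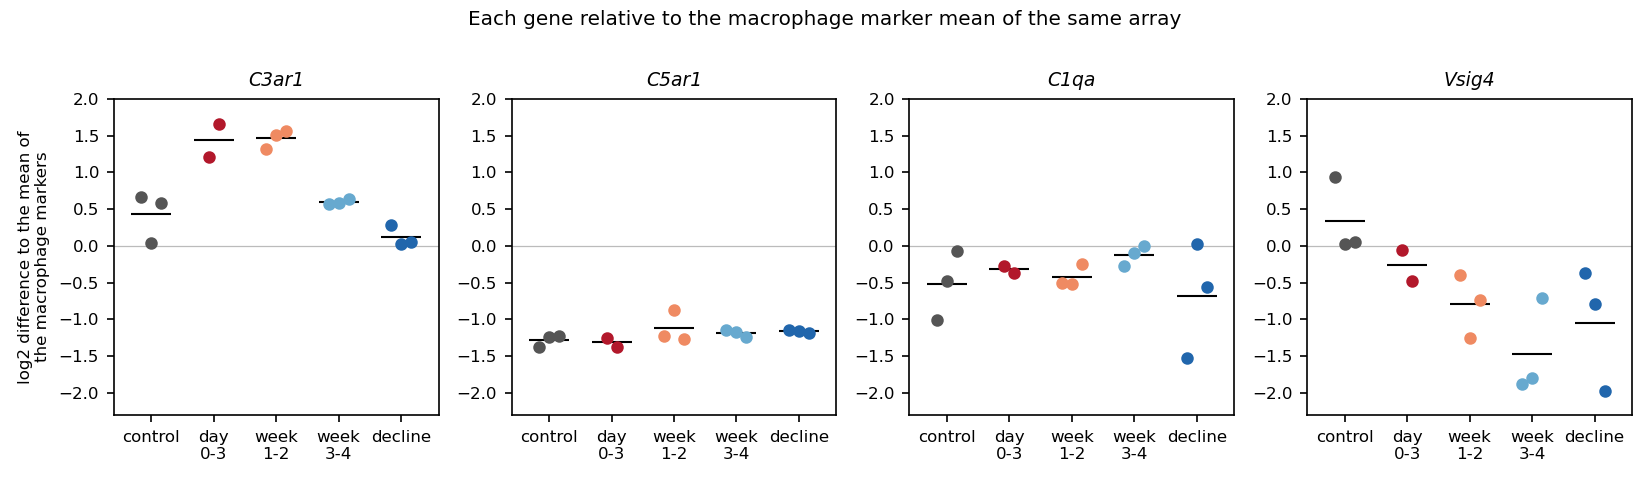
Log2 value of C3ar1, C5ar1, C1qa and Vsig4 minus the mean log2 value of 11 macrophage markers on the same array (y axis), for each joint (points) in the 5 groups (x axis), with the group mean as a line. C3ar1 stands at 1.21 to 1.66 in the 5 joints of the early phases and at 0.04 to 0.67 in the controls, while C5ar1 stays between -1.37 and -0.87.

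In the alternative pathway, Cfb rose at day 0 to 3 and Cfp was not called. Cfb, the protease subunit of the alternative C3 convertase, read 10.30 and 10.04 at day 0 to 3, 9.08, 9.43 and 9.88 at week 1 to 2, and 8.94, 7.77 and 7.87 in the controls. Each early joint was above the highest control, although the lowest week 1 to 2 joint was so by a narrow margin. Cfb was 3.94-fold higher at day 0 to 3 (log2 1.98, SE 0.44, adjusted p = 0.019, limma), and at week 1 to 2 its difference of 1.27 (SE 0.40) missed the threshold (adjusted p = 0.058, limma). It read 8.55, 8.72 and 9.95 at week 3 to 4 and 8.34, 9.31 and 8.41 in decline, where both groups overlapped the controls. The day 0 to 3 call was lost without animal 16, animal 18, control 2 or control 3 (adjusted p = 0.179, 0.112, 0.056 and 0.054), and with animal 57, at 7.75, the difference was 1.17 and the adjusted p was 0.533. It was also lost, by a narrow margin, in a limma fit of only the groups compared (adjusted p = 0.05) and in analysis of variance without moderation (adjusted p = 0.068). At week 1 to 2 Cfb passed the threshold without animal 60, 21 or 10 or control 1 (adjusted p = 0.036, 0.048, 0.048 and 0.019), and with limma's array weights, which give less weight to noisier arrays (adjusted p = 0.037).

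Cfp, properdin, which steadies that convertase and is stored in neutrophils, moved little. It read 7.57 and 7.40 at day 0 to 3, 6.84, 7.19 and 7.20 at week 1 to 2, and 7.14, 6.96 and 7.20 in the controls. Only the day 0 to 3 joints were clear of the controls (log2 0.38, SE 0.20, adjusted p = 0.243, limma). At week 3 to 4 it read 7.30, 7.01 and 7.20 and in decline 6.83, 7.20 and 7.49, both overlapping the controls.

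In the classical pathway no gene was called against the controls. At day 0 to 3, 5 of 7 stood above all controls, as did 18.4% of all genes. For C2 the margin was narrow, with a lowest joint at 6.46 and a highest control at 6.42. C1qa, C1qb and C1qc encode the 3 chains of C1q, which recognises bound antibody and is made largely by macrophages. C1qa read 8.68 and 8.31 at day 0 to 3, 7.69, 8.03 and 8.39 at week 1 to 2, 7.90, 7.90 and 8.56 at week 3 to 4, 6.42, 8.35 and 6.91 in decline, and 7.05, 6.90 and 7.63 in the controls. It was above all controls in the 3 phases with a score of 3 and spread widely in decline. Its difference was 1.30 at day 0 to 3 (SE 0.44, adjusted p = 0.086, limma), 0.84 at week 1 to 2 and 0.93 at week 3 to 4 (adjusted p = 0.17 and 0.184). Without animal 21 the day 0 to 3 value passed the threshold (adjusted p = 0.019). C1qb and C1qc differed by 0.64 (SE 0.30) and 0.59 (SE 0.23) at day 0 to 3, with adjusted p of 0.202 and 0.122. The mean of the 3 chains was 7.83 to 8.10 in controls, 8.74 to 8.92 at day 0 to 3, 8.33 to 8.67 at week 1 to 2, 8.37 to 8.94 at week 3 to 4 and 7.78 to 8.79 in decline. It was clear of the controls in the 3 phases with a score of 3. The mean of 11 macrophage markers was so in the 2 early phases. In that mean, animal 29 alone lay below the highest control at week 3 to 4, by a narrow margin. The other joints of that phase lay above all controls. Of the chains, C1qb and C1qc each overlapped the controls at week 3 to 4. These values therefore do not separate C1q from the macrophage markers in that phase.

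C1s1, the protease of the C1 complex that cleaves C4 and C2, read 7.64 and 7.93 at day 0 to 3, 7.38, 7.94 and 7.62 at week 1 to 2, 7.10, 6.93 and 7.87 at week 3 to 4, 6.70, 6.84 and 5.88 in decline, and 7.50, 6.04 and 6.46 in the controls. Control 1, at 7.50, lay above animal 33 and below the other early joints, and its removal brought the early differences past the threshold. With it the differences were 1.12 at day 0 to 3 (SE 0.40, adjusted p = 0.102, limma) and 0.98 at week 1 to 2 (SE 0.36, adjusted p = 0.093, limma), and without it 1.53 and 1.39 (adjusted p = 0.018 and 0.016). With array weights the day 0 to 3 value passed too (adjusted p = 0.045). C1ra, the partner protease, differed by 0.08 (SE 0.17) at day 0 to 3, and C2 by 0.13 (SE 0.22). C4b, which yields the surface-bound fragment of this route, differed by -0.15 (SE 0.16) at day 0 to 3 and -0.38 (SE 0.14, adjusted p = 0.103) at week 1 to 2. C4b and C4a, as C1s1 and C1s2, are near-identical copies, and signal shared within each pair cannot be told apart on this array.

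Of the 6 lectin pathway members, 0 were called in any comparison. Masp1, a protease that circulates with the mannose-binding lectins and ficolins, read 7.50 and 7.32 at day 0 to 3, 7.09, 7.08 and 7.28 at week 1 to 2, 7.10, 7.18 and 7.59 at week 3 to 4, 7.23, 7.08 and 6.26 in decline, and 6.69, 6.62 and 6.48 in the controls. It was above all controls in each phase with a score of 3, and only animal 10 was below them in decline. Its difference was 0.81 at day 0 to 3 (SE 0.25, adjusted p = 0.062), 0.55 at week 1 to 2 (SE 0.22, adjusted p = 0.117) and 0.69 at week 3 to 4 (SE 0.22, adjusted p = 0.105), all by limma. Without animal 10, whose array had a narrow spread, all 3 passed the threshold (adjusted p = 0.01, 0.027 and 0.024), and with array weights the early 2 did (adjusted p = 0.013 and 0.044). Mbl1, a mannose-binding lectin, read 4.92 and 4.88 at day 0 to 3, 5.09, 4.94 and 5.04 at week 1 to 2, 5.27, 5.18 and 4.79 at week 3 to 4, 5.14, 5.03 and 5.28 in decline, and 5.23, 5.56 and 5.41 in the controls. It lay below the controls in both early phases (log2 -0.50 and -0.37, adjusted p = 0.094 and 0.131, limma). Masp2, Mbl2, Fcna and Fcnb differed by between -0.41 and -0.03 at day 0 to 3.

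C7 was the only terminal gene called, and the complement gene with the clearest fall. It encodes the component that inserts the growing terminal complex into membranes. C7 read 8.08, 7.96 and 7.94 in the controls, 6.49 and 6.04 at day 0 to 3, and 6.53, 6.48 and 6.04 at week 1 to 2. It then read 6.79, 6.90 and 7.43 at week 3 to 4 and 7.41, 6.40 and 7.08 in decline. Each of the 11 arthritic joints lay below each control, while the 3 controls lay within 0.14 of each other. The fall was 3.31-fold at day 0 to 3 (log2 -1.73, SE 0.28, adjusted p = 0.0037, limma) and 3.12-fold at week 1 to 2 (log2 -1.64, SE 0.25, adjusted p = 0.0032, limma). At week 3 to 4 the difference was -0.95 (SE 0.25, adjusted p = 0.067) and in decline -1.03 (SE 0.25, adjusted p = 0.164), neither called. The call at week 1 to 2 held in all 14 fits with 1 array left out, and that at day 0 to 3 was lost only without animal 18 (log2 -1.50, adjusted p = 0.073). At week 3 to 4 C7 passed without animal 21 or animal 10 (adjusted p = 0.04 and 0.044), after a second quantile normalisation (adjusted p = 0.027) and after scaling to one median and SD (adjusted p = 0.042). C7 was the 1 complement gene still called in both early phases with animal 57 included, whose C7 read 6.61.

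The means of adipocyte, muscle, erythroid and hepatocyte markers were also below all controls in both early phases. Most of the hepatocyte markers had mean log2 values under 6. The mean of 8 adipocyte markers was 8.15 to 8.27 in controls, 7.37 to 7.44 at day 0 to 3, 7.60 to 7.65 at week 1 to 2, 7.61 to 7.95 at week 3 to 4 and 7.75 to 7.87 in decline, with 5 of 8 called lower at day 0 to 3 and 4 at week 1 to 2. Of the 8 muscle markers, 7 fell at day 0 to 3 and 2 at week 1 to 2. The 10 fibroblast markers went the other way, from 9.31 to 10.16 in controls to 10.39 to 10.43 at day 0 to 3. The part of these tissues in the C7 values was not tested.

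None of the remaining terminal genes was called. C9, the pore-forming component, read 4.26 and 4.43 at day 0 to 3, 4.38, 3.96 and 4.20 at week 1 to 2, 4.32, 4.52 and 4.36 at week 3 to 4, 4.33, 4.51 and 4.77 in decline, and 4.23, 4.86 and 4.82 in the controls. All phases overlapped the controls, and the direction at day 0 to 3 turned when the arrays were scaled to one median and SD (log2 -0.30 as deposited and 0.02 scaled). At week 1 to 2 the difference was -0.46 (SE 0.19, adjusted p = 0.127), and without control 1 it was -0.66 (adjusted p = 0.028). C6, C8a, C8b, C8g and Hc, the gene for C5, differed by between -0.41 and -0.06 at day 0 to 3, none called. Hepatocyte markers, which mark the main source of these proteins, averaged 5.93 to 6.12 in controls and 5.58 to 5.67 at day 0 to 3, with 0 of 10 called by the adjusted limma p.

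Across the set, 9 members had a mean log2 value under 6, and these were Masp2, Mbl1, Fcna, C6, C8a, C9, Hc, Cd46 and C4bp. All 9 had a negative difference at day 0 to 3, with a median of -0.30, and the 7731 genes of the array with means under 6 had a median of -0.26. After a second quantile normalisation 6 of the 9 were negative, with a median of -0.04 against -0.05 for those genes. The small negative values of the dim members were thus of the size seen for dim genes at large, and depended on the scaling.

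Among the inhibitors Cr1l rose at week 1 to 2 and the others were not called. Cr1l encodes Crry, a rodent membrane protein that blocks C3 activation on the cell that carries it. It read 8.18 and 8.18 at day 0 to 3, 8.29, 8.61 and 8.47 at week 1 to 2, 8.26, 8.58 and 8.50 at week 3 to 4, 8.46, 8.20 and 6.87 in decline, and 7.51, 6.61 and 7.60 in the controls. Every joint of the 3 phases with a score of 3 was above every control, and in decline only animal 10 was not. Cr1l was 2.33-fold higher at week 1 to 2 (log2 1.22, SE 0.35, adjusted p = 0.042, limma). The size was alike at week 3 to 4 (log2 1.20, SE 0.35, adjusted p = 0.081) and 0.94 at day 0 to 3 (SE 0.39, adjusted p = 0.145), neither called. The week 1 to 2 call held in 4 of 14 fits with 1 array left out. It was lost without animal 16, 18, 33, 43, 52, 54, 29 or 60 or control 2 or 3, with adjusted p from 0.052 to 0.151 and, without control 2, a difference of 0.90. The Cr1l call was lost as well with animal 57 included, in analysis of variance without moderation, after a second quantile normalisation and after scaling to one median and SD (adjusted p = 0.166, 0.097, 0.058 and 0.059). Without animal 10 the values at day 0 to 3 and week 3 to 4 passed (adjusted p = 0.03 and 0.014).

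Cd59a, which blocks the terminal pore on cell membranes, read 6.55 and 6.30 at day 0 to 3, 6.94, 6.99 and 7.01 at week 1 to 2, 6.82, 6.70 and 7.02 at week 3 to 4, 7.54, 6.38 and 6.28 in decline, and 5.41, 6.73 and 5.59 in the controls. Control 2 stood apart from the other controls, and only week 1 to 2 was clear of all 3. The difference at week 1 to 2 was 1.07 (SE 0.34, adjusted p = 0.059, limma), and it passed without animal 15, animal 10 or control 2 (adjusted p = 0.031, 0.041 and 0.016) and with array weights (adjusted p = 0.011). Cd55, which speeds the decay of convertases on membranes, read 7.34 and 7.06 at day 0 to 3, 7.81, 7.94 and 7.97 at week 1 to 2, and 8.28, 7.48 and 7.59 in the controls. The difference between the 2 early phases was 0.71 (SE 0.26, adjusted p = 1, limma), and the phases did not overlap.

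Among the soluble inhibitors, Cfi, the protease that cuts C3b and C4b, read 6.80 and 6.62 at day 0 to 3, 6.17, 6.07 and 6.20 at week 1 to 2, and 5.87, 5.76 and 5.69 in the controls. Both early phases were above all controls (log2 0.94, SE 0.29, adjusted p = 0.062 at day 0 to 3, limma, not called). Serping1, the C1 inhibitor, read 10.97 and 11.08 at day 0 to 3 against 10.90, 10.29 and 10.73 in controls (log2 0.39, SE 0.19, adjusted p = 0.22). Clu, which keeps terminal complexes soluble, read 8.95 and 8.84 at day 0 to 3, 8.91, 9.01 and 9.04 at week 1 to 2, and 9.63, 8.96 and 9.71 in controls. From week 3 to 4 on Clu lay between 9.32 and 9.78, above every early joint, with 0.52 (SE 0.20, adjusted p = 0.815) between week 3 to 4 and week 1 to 2. Vtn, another binder of terminal complexes, and C4bp, which inhibits the classical convertase, differed by -0.32 (SE 0.23) and -0.52 (SE 0.25) at day 0 to 3. Cd46, which in mice is largely confined to the testis, stayed at or below 5.42 on every array and differed by -0.62 (SE 0.18, adjusted p = 0.087) at week 3 to 4. It shares a stretch of chromosome 1 with the neighbouring gene Cr1l, since the annotated spans overlap.

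**Figure D4:**
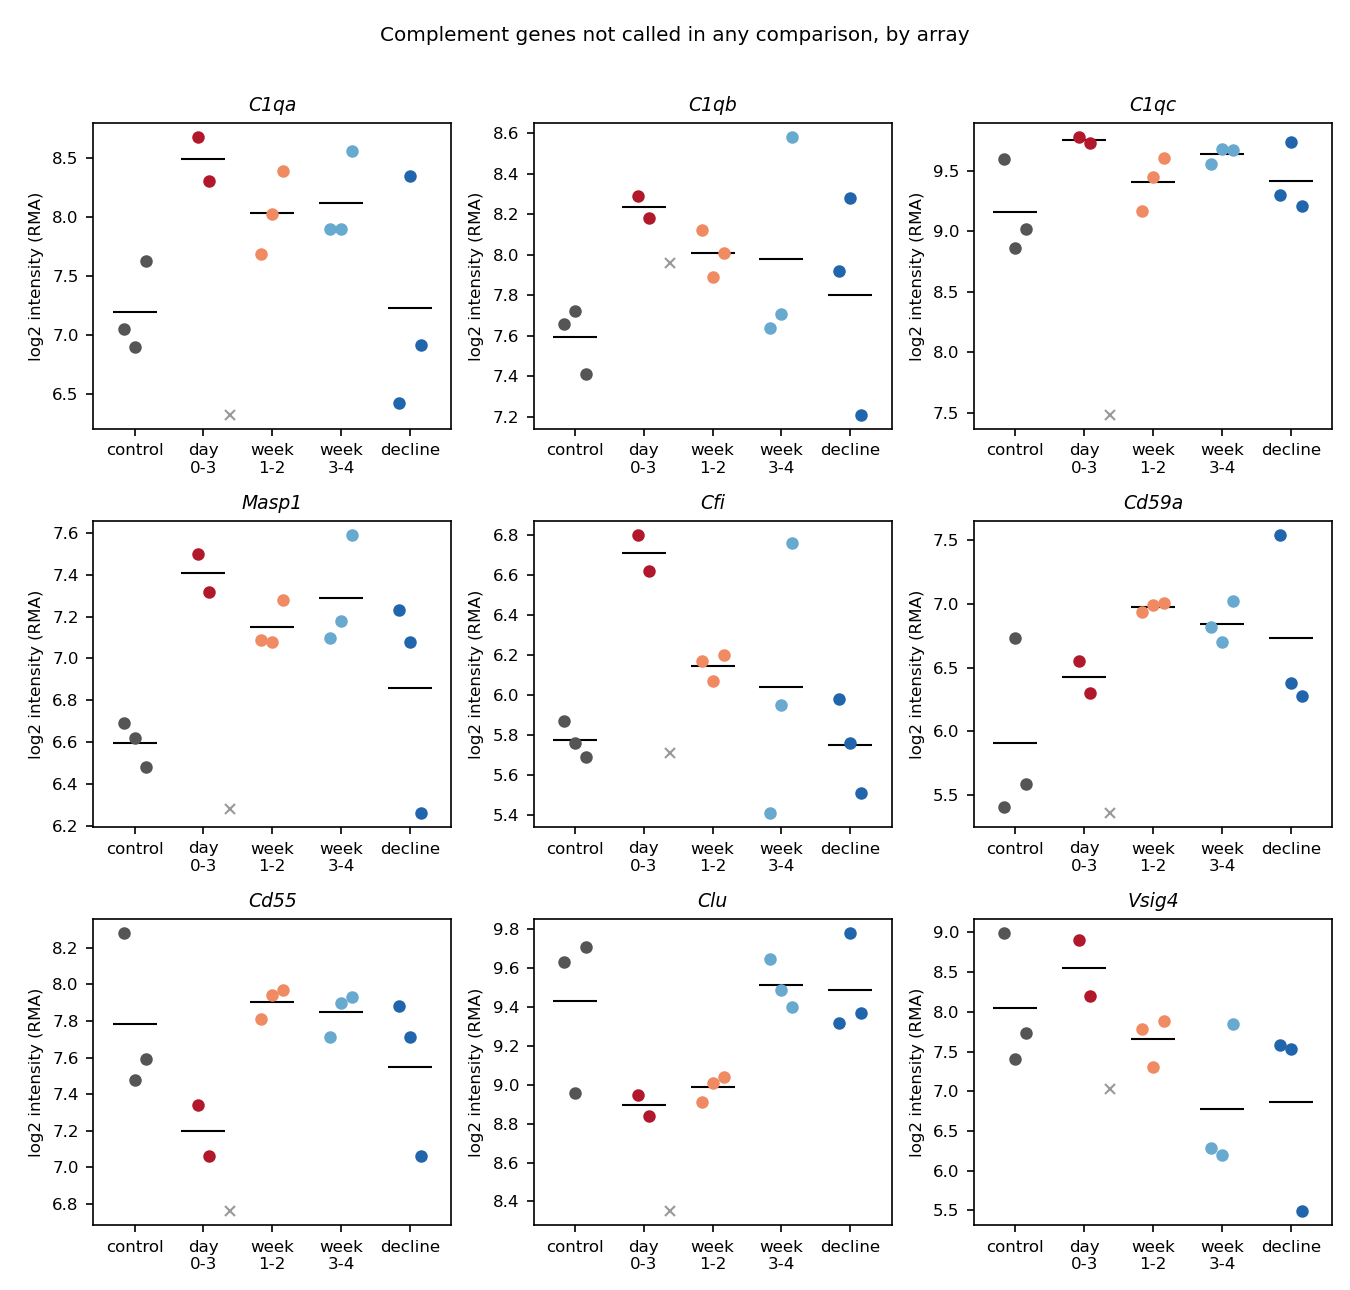
Log2 intensity (y axis) of 9 complement genes that were not called in any comparison, for each joint (points) in the 5 groups (x axis), with the group mean as a line; the grey cross is animal 57, which failed quality control. C1qa, Masp1 and Cfi stand above the controls in both early phases, and Clu is lower in the 5 joints of these phases than in later joints.

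Between consecutive phases no complement gene was called. In the first step, from day 0 to 3 to week 1 to 2, 0 of 34 were called and 0.00502% of all genes in either direction. In the step from there to week 3 to 4 the count was again 0, with 0.00502% of all genes, and from week 3 to 4 to decline it was 0, with 0% of all genes. At an unadjusted p under 0.05, limma gave 1 complement gene in the first step (Cd55, with 1.79% of all genes), 3 in the next (C7, C3ar1 and Clu, with 4.98%) and 3 in the last (C1qa, C1s1 and C3ar1, with 6.13%). From week 1 to 2 to week 3 to 4, C3ar1 differed by -1.08 (SE 0.31, adjusted p = 0.77) and C7 by 0.69 (SE 0.25, adjusted p = 0.812), and neither gene overlapped between these phases. Groups did not overlap for 4 genes higher in the first step (Mbl1, Cd55, Cd59a and Cr1l, with 9.12% of all genes) and for 9 lower (with 11.2%), for 5 higher and 1 lower in the next (with 9.91% and 5.07%), and for 3 lower in the last (C1s1, C3ar1 and Serping1, with 4.49%).

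Set against the mean of both early phases, joints in decline had lower C3ar1 and C1s1. These were 2 of 34 complement genes, with 4.75% of all genes called in either direction and 2.08% called lower, while 0 were called higher, with 2.67% of all genes. At an unadjusted p under 0.05, limma gave 10 of 34, with 19.8% of all genes. Groups did not overlap for 4 lower genes (C1s1, C3ar1, Cfi and Serping1, with 7.34% of all genes) and 2 higher ones (C8g and Clu, with 9.07%). C3ar1 averaged 8.04 (SD 0.44, n = 3) in decline against 10.09 for the mean of the early phases, a 4.13-fold difference (log2 -2.05, SE 0.28, adjusted p = 0.004, limma), with no overlap. The C3ar1 call held in all 14 fits with 1 array left out and was lost with animal 57 included (log2 -1.46, adjusted p = 0.415). C1s1 was 2.37-fold lower (log2 -1.24, SE 0.32, adjusted p = 0.045, limma), also with no overlap, since its highest value in decline was 6.84 and its lowest early value 7.38. The C1s1 call held in 3 of 14 such fits. It was lost without animal 16, 18, 33, 43, 52, 54, 29, 15, 21 or 10 or control 3, with adjusted p from 0.053 to 0.186, and with animal 57 included (adjusted p = 0.38). The C1s1 call was also lost in analysis of variance without moderation, after centring on the median, after a second quantile normalisation, after scaling to one median and SD and without animal 10 and control 2 together (adjusted p = 0.13, 0.055, 0.054, 0.059 and 0.098).

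This last comparison also followed a letter in the array names, whose meaning the sources do not give. All early joints carried one letter and all decline joints the other, and only week 3 to 4 held both. With the letter as a block, C3ar1 differed by -2.20 (adjusted p = 0.384) and C1s1 by -1.54 (adjusted p = 0.679). Within the first letter, C3ar1 was 8.74 in the 1 week 3 to 4 joint against 9.51 to 10.20 at week 1 to 2, and within the second it was 7.53 to 8.35 in decline against 8.59 and 9.20 at week 3 to 4. Phase and letter cannot be told apart for the early joints against decline. Epidermis markers, at 9.82 to 10.63 in decline and 5.60 to 6.34 in the early joints, differed along the same line. At week 3 to 4 their mean was 6.79 in animal 54, of the first letter. It was 10.20 and 10.17 in animals 29 and 60, of the second. The part of the epidermis in these differences was not tested.

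Of 28 further complement genes, 23 were measured, and 2 rose and 1 fell at day 0 to 3 while 1 rose and 1 fell at week 1 to 2. Over all genes 4.46% were called higher and 3.36% lower at day 0 to 3, and 5.41% and 4.64% at week 1 to 2. Ptx3, a pentraxin that binds C1q, read 8.36 and 8.27 at day 0 to 3, 7.90, 8.29 and 8.97 at week 1 to 2, and 7.29, 7.15 and 6.86 in the controls. It rose 2.32-fold at day 0 to 3 (log2 1.22, SE 0.30, adjusted p = 0.027, limma) and 2.43-fold at week 1 to 2 (log2 1.28, SE 0.27, adjusted p = 0.012, limma), with no overlap, and was lower in decline than in the early phases (log2 -1.02, SE 0.24, adjusted p = 0.03, limma). Its call at day 0 to 3 was lost without animal 16 or 18 or control 2 or 3 (adjusted p = 0.208, 0.143, 0.053 and 0.073) and at week 1 to 2 without animal 52 (adjusted p = 0.057). Against decline it was lost without animal 16, 18, 43, 52, 21 or 10 (adjusted p from 0.052 to 0.104), without animal 10 and control 2 together (adjusted p = 0.067) and with the letter as a block (adjusted p = 0.748). Analysis of variance without moderation ended the Ptx3 calls at day 0 to 3 and against decline (adjusted p = 0.073 and 0.095).

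Itgam, the alpha chain of complement receptor CR3 on myeloid cells, read 8.47 and 8.26 at day 0 to 3 against 7.48, 7.08 and 7.12 in the controls, with no overlap (log2 1.14, SE 0.29, adjusted p = 0.033, limma). The Itgam call was lost without animal 16 or 18 or control 2 or 3 (adjusted p = 0.256, 0.142, 0.081 and 0.078), without animal 10 and control 2 together (adjusted p = 0.051) and in analysis of variance without moderation (adjusted p = 0.082). Colec11, a collectin of the lectin pathway, read 6.78 and 6.52 at day 0 to 3 against 7.10, 7.40 and 7.15 (log2 -0.57, SE 0.16, adjusted p = 0.048, limma). That call held in 3 of 14 fits and was lost without animal 16, 18, 33, 43, 52, 54, 29, 60 or 15 or control 2 or 3 (adjusted p from 0.056 to 0.301). It was also lost in a fit of only the groups compared, after centring on the median, after a second quantile normalisation, after scaling to one median and SD and without animal 10 and control 2 together (adjusted p = 0.178, 0.057, 0.059, 0.05 and 0.053). Cpn1, the catalytic subunit of an enzyme that inactivates C3a and C5a, read 4.55, 4.44 and 4.68 at week 1 to 2 against 5.03, 5.50 and 5.61 (log2 -0.82, SE 0.17, adjusted p = 0.013, limma), and the call was lost without animal 43 (adjusted p = 0.07). Its values were as dim as those of the 9 dim members. The 7731 genes with means under 6 had a median of -0.28 at week 1 to 2, and of -0.06 after a second quantile normalisation, where the Cpn1 call held. With animal 57 included none of these calls held (adjusted p from 0.084 to 0.681).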

How the data were processed

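RNA of 15 tarsal joints was measured on 15 arrays, of which 14 passed the quality control given in the labels. The authors deposited log2 values made by RMA in R 2.15, which corrects background, applies quantile normalisation and summarises each probe set. The sources used here do not say whether 14 or 15 arrays were normalised together. The table held 35556 probe sets, of which 21789 named 1 gene, 1621 several and 12146 none, and a gene with more than 1 probe set of its own was read from the brightest. This gave 19938 genes.

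Groups were compared in limma 3.58.1 (R 4.3.3) with 1 coefficient per group and Benjamini-Hochberg adjustment over all genes. The study's methods name an analysis of variance with false discovery rates, and this was run as an alternative. The early phases were day 0 to 3 plus week 1 to 2, weighted equally. The number of arrays limits the precision, and p-values measure the spread between single joints. Alternatives were each array left out, animal 57 added, other thresholds, filters, scalings and spread estimates, and the letter in the array names as a block. Leaving out animal 10 and control 2 together was added after seeing the data. The fit was checked on simulated data with known changes. Where a phase is left with 1 joint, that joint is assumed to vary like the other groups.

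Complement members, marker lists and tests were chosen with earlier results of these data known. Values in every array are given for members called in a phase against control and for the 2 members of each class with the largest difference at day 0 to 3 or week 1 to 2. Values of Vsig4, Cd55, Cfi, Serping1 and Clu were added after they had been seen. Sequences come from RefSeq, build GRCm38.p6, and figures were drawn with matplotlib 3.10.9 in Python 3.11.15.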

Additional observations from a re-analysis of the deposited data

Results flagged for a closer look

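C3ar1 was lower in decline than in the early phases, by -2.05 on the log2 scale, in a direct test of the difference between the phases (limma, adjusted p = 0.004). C1s1 was lower in the same test by -1.24 (adjusted p = 0.045). The array of animal 57, which failed quality control and is outside the groups as reported, read above every control for 12 of 34 complement genes, as for 36.3% of all genes, and below every control for 16, as for 27.4% of all genes. The 12 included C6, C8a, C8b, C9, Mbl1, Mbl2 and C4bp, and the 16 included C3ar1, C5ar1, Cfb, C1qa, C1qc and C7.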

How the results depend on the processing

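With 1 array left out in turn, the number of complement genes called ran from 0 (without animal 18) to 7 (without animal 10 or control 1) at day 0 to 3, from 2 to 7 at week 1 to 2, and from 0 to 3 at week 3 to 4. It stayed at 0 in decline and between consecutive phases, and ran from 1 to 3 for decline against the early phases. Without animal 10 and control 2 together it was 8, 7, 3 and 1 in the 4 phases against control, in their order. With animal 57 included it was 1 at day 0 to 3, 1 at week 1 to 2 and 0 for decline against the early phases. Array weights gave 8 in each of these 3 comparisons, and 1 for week 1 to 2 against day 0 to 3 and for week 3 to 4 against week 1 to 2. Analysis of variance without moderation gave 2, 2 and 1. A second quantile normalisation gave 7 at day 0 to 3 and 1 at week 3 to 4, scaling to one median and SD gave 1 at week 3 to 4, and centring on the median gave 1 for decline against the early phases. A fold of at least 2 with an unadjusted p under 0.05 gave 2 at week 3 to 4, 1 in decline, 1 for week 3 to 4 against week 1 to 2 and 5 for decline against the early phases. A fit of only the groups compared gave 4 for the last, and the letter as a block gave 0. The cause was not tested. All other settings stayed within 1.5 times the reported counts.

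Directions turned only for differences that were not called. C1qa in decline was 0.03 as reported, -0.48 with array weights, -0.04 after a second quantile normalisation, -0.01 after scaling, and -0.53 to 0.44 with 1 array left out. C1s1 and C3ar1 in decline ran from -0.51 to 0.22 and from -0.46 to 0.19 with 1 array left out. C9 was 0.02 at day 0 to 3 and 0.05 at week 3 to 4 after scaling, and 0.07 at week 3 to 4 after a second quantile normalisation. In decline C9 was 0.04 after that normalisation, 0.06 after scaling and -0.30 to 0.02 with 1 array left out. Cfp at week 1 to 2 was 0.06 after centring and -0.09 to 0.10 with 1 array left out. At week 3 to 4 it was -0.05 after a second quantile normalisation and -0.00 to 0.15 with arrays left out, and in decline -0.20 with array weights and -0.16 to 0.25 with arrays left out. No paired analysis was possible because the replicate numbers are animal numbers that no 2 groups of arthritic joints share, and the control numbers pair with no animal. Groups of 2 or 3 joints, and intensities near background for the 9 dim members, limit what these arrays can show.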
